A study of Mus musculus with 24 samples.

Results

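TCR insHEL thymocytes sorted before selection were compared with TCR thymocytes sorted at the same stage, on 12 of the 24 arrays of a study of thymic selection in mice. The arrays were chosen by their titles, 6 of TCR insHEL double positive cells (3 from B10 and 3 from NOD mice) and 6 of TCR double positive cells (3 from B10 and 3 from NOD mice). All mice were females aged 6 to 8 weeks and all carried the 3A9 TCR transgene, which gives CD4 T cells a receptor for a peptide of hen egg lysozyme (HEL) presented by an H2k MHC molecule. TCR insHEL mice carried in addition HEL under the insulin promoter, and TCR mice did not. B10 is the non-autoimmune C57BL10.H2k strain and NOD the autoimmune non-obese diabetic strain, studied on the H2k background. The sorted cells, called PreS for pre-selection, were CD4+CD8+CD69- and negative for the 1G12 antibody to the transgenic receptor, so the gate itself kept cells with little of that receptor on the surface. Each array held 1 independent pool of RNA from sorted cells, amplified over 2 rounds before hybridization. The other 12 arrays held early single positive cells (CD4+CD8lowCD69+1G12+) of the same genotypes and strains. They serve here as a scale, in the filter on low signals, and in the estimate of the spread for the comparisons within a strain.

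Double positive thymocytes rearrange their T cell receptor alpha genes in the thymic cortex, and only those that display a receptor can be positively selected or deleted. Proteins of peripheral organs such as insulin are made in the thymus by epithelial cells of the medulla under control of Aire, and an insulin promoter places a transgenic antigen in that same compartment. The comparison therefore asks whether the presence of such an antigen in the mouse is accompanied by a different transcriptome in cells sorted before they reach the stage at which selection is signalled.

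Signals of 22626 probesets (sets of oligonucleotides that read a transcript) were left after removal of control probesets. Those that reached 32 on each of the 3 arrays of any 1 of the 8 groups, 12838 probesets of 7831 genes, were tested. The share of probesets at or above 32 lay between 49.4% and 53.5% on the 12 PreS arrays, and arrays of 1 group correlated between 0.878 and 0.951. The sorted stage was borne out by its markers. Cd8a averaged 2753 in TCR insHEL and 2704 in TCR PreS cells but 421.9 in TCR insHEL and 337.7 in TCR single positive cells, and Rag1, which cuts receptor genes for rearrangement, had a PreS mean of 991.5 in TCR insHEL and 1236 in TCR cells, against single positive means of 210.2 in TCR insHEL and 233.5 in TCR cells. The array NOD TCR insHEL 1 stood apart, with a median correlation of 0.863 to the other PreS arrays (0.901 to 0.934 for the remaining 11), an upper quartile of 114.3 (143.9 to 166.9) and the highest 3' to 5' log2 signal ratio of the Actb and Gapdh control probesets, a sign of RNA length, at 4.94. Over the genotypes that ratio ranged from 1.06 to 4.94 in TCR insHEL and from 1.34 to 3.91 in TCR arrays and averaged 0.19 higher in TCR insHEL arrays (exact permutation within strains, two-sided, p = 0.785, smallest possible p = 0.005). TCR insHEL arrays were hybridized on later days (exact permutation within strains, two-sided, p = 0.03), and only 2 of the 6 hybridization days of PreS arrays held both genotypes, so day and genotype cannot be told apart for the arrays of the other days. The HEL transgene itself was not measured here.

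With strain as a block, no gene was called higher or lower in TCR insHEL than in TCR PreS cells. The count past an adjusted p of 0.05 was 0 of 12838 in either direction (0% called), by limma's moderated test with Benjamini-Hochberg adjustment, and the smallest adjusted p was 0.994. At an unadjusted p under 0.05 there were 397 probesets (3.09%), of which 184 (1.43%) were higher and 213 (1.66%) lower in TCR insHEL cells. The same arrays gave 400 called probesets (3.12%) between NOD and B10 PreS cells, and the same block design on the 12 single positive arrays gave 9 higher and 1 lower in TCR insHEL cells (0.0779% called) with 1109 (8.64%) at an unadjusted p under 0.05. No call appeared in the PreS comparison under any of the 26 other settings, among them the methods' t-test, in which the spread of each probeset is estimated from that probeset alone. In the reported fit, a genotype difference that varies between strains adds to the spread. With all 24 arrays in 8 groups it does not, and 0 were called and 566 (4.41%) had an unadjusted p under 0.05. The unadjusted count was 1005 (7.83%) without B10 TCR 3, 599 without B10 TCR insHEL 2 and 237 without NOD TCR 1, and it was 939 (7.31%) with arrays weighted by their spread and 904 (7.04%) with hybridization day as a fixed block.

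**Figure D1:**
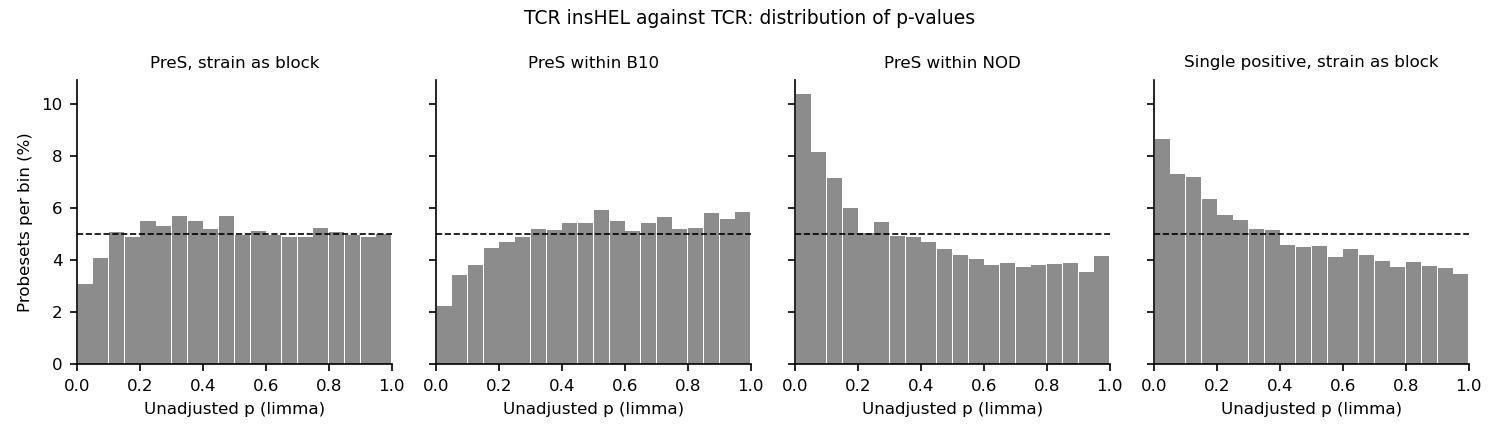
Share of the 12838 tested probesets (percent, vertical axis) in each of 20 bins of unadjusted p (horizontal axis) for TCR insHEL against TCR cells, from left to right in PreS cells with strain as a block, PreS cells of B10, PreS cells of NOD and single positive cells with strain as a block. The dashed line marks the 5% per bin of a flat distribution. The lowest bin holds 3.09%, 2.24%, 10.4% and 8.64% of probesets from left to right.

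The intervals limited how large a difference could have gone unseen. The median absolute difference was 0.17 on the log2 scale, on which 1 is a 2-fold difference, and 85 probesets (0.662%) differed by more than 1. For 10564 of the 12838 probesets (82.3%) the 95% interval of the difference lay wholly between -1 and 1, so a 2-fold difference in either direction was outside it. For the other probesets a difference of that size was within the interval. The median half-width of the interval was 0.51. Within a strain the limits were wider, with 8566 intervals (66.7%) between -1 and 1 in B10 and 5022 (39.1%) in NOD.

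No gene that reports a signal through the T cell receptor was called in PreS cells, and the differences had either sign. Nr4a1, an immediate early orphan nuclear receptor of antigen-stimulated thymocytes, had signals of 203, 167 and 207 in B10 TCR insHEL and 37.5, 85.3 and 125 in NOD TCR insHEL cells, against 156, 226 and 80.7 in B10 TCR and 142, 82.9 and 93.9 in NOD TCR cells. The genotypes overlapped in both strains, with the lowest value on NOD TCR insHEL 1, and the difference was -0.01 (95% interval -0.68 to 0.65), with 0.40 in B10 and -0.42 in NOD. In single positive cells the same probeset read 1094 to 1939 in TCR insHEL and 618.1 to 926 in TCR cells, a difference of 1.00 (adjusted p = 0.0723). Egr1, an early growth response factor induced through ERK, ranged over 458 to 1524 in TCR insHEL cells and 836 to 1769 in TCR cells, a difference of -0.22 (95% interval -0.78 to 0.33). Egr2, which follows calcineurin signals, differed by -0.52 (95% interval -1.23 to 0.19) by 1 probeset and by 0.03 by its other one. Pdcd1, the inhibitory receptor PD-1, had signals of 234, 194 and 201 in B10 TCR insHEL and 99.7, 164 and 211 in NOD TCR insHEL cells, against 148, 147 and 155 in B10 TCR and 131, 185 and 180.3 in NOD TCR cells. In B10 the TCR insHEL values all lay above the TCR values and in NOD they enclosed them. The blocked difference was 0.20 (95% interval -0.22 to 0.62), against 1.09 in single positive cells (adjusted p = 0.0069), where it was 1.66 in B10 and 0.53 in NOD. Of the list of 24 early genes of receptor signalling, 17 were tested. None was called and none had an unadjusted p under 0.05 (3.09% of all probesets had), 7 differed upwards, and the median was -0.02, as against -0.01 over all probesets tested. The interval lay between -1 and 1 for 12 of the 17. Among the members with wider intervals, Egr3 differed by 0.53 (95% interval -0.09 to 1.14) and Dusp6, a phosphatase of ERK, by -0.65 (95% interval -2.85 to 1.54).

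**Figure D2:**
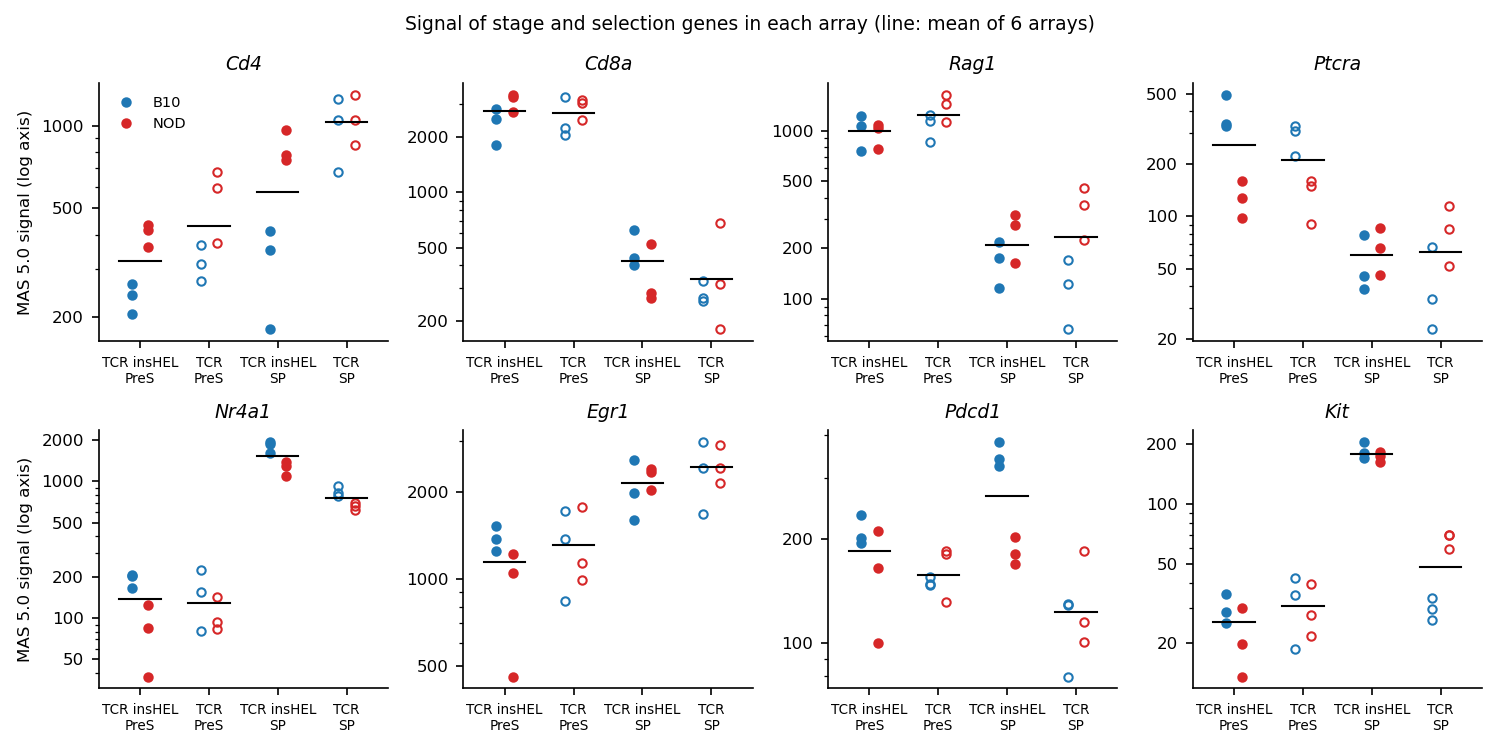
MAS 5.0 signal (log axis) of 8 genes in every array, with TCR insHEL left of TCR cells, first for PreS and then for single positive (SP) cells. Points are arrays (filled, TCR insHEL; open, TCR), blue for B10 and red for NOD, and lines are means of 6 arrays. In PreS cells the genotypes overlap for every gene shown, and Nr4a1, Pdcd1 and Kit stand higher in TCR insHEL than in TCR single positive cells.

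Genes known for strong agonist stimulation, that is for deletion or diversion of thymocytes, were compared next. Of 24 genes in that list 21 were tested. In PreS cells 0 were called (0% of all probesets) and 1 had an unadjusted p under 0.05, and the median difference was -0.06 (all probesets, -0.01). In single positive cells 8 of the 21 were called, all higher in TCR insHEL cells (0.351% of all probesets were), with a median of 0.90 (all probesets, 0.01). Their single positive medians were 1.06 in B10 and 0.70 in NOD. The list was set up with results of the single positive arrays known, so its direction there is not independent evidence. Smox, spermine oxidase, differed by 0.02 (95% interval -0.33 to 0.37) in PreS cells and by 1.02 in single positive cells (adjusted p = 0.00298). Tnfrsf18, the costimulatory receptor GITR, differed by 0.01 (95% interval -0.38 to 0.40) in PreS cells and by 0.93 in single positive cells (adjusted p = 0.0138). For both genes the whole PreS interval lay below the single positive value, a reading that leaves out the error of that value. Bcl2l11, the BH3-only killer Bim, was read by 5 tested probesets, whose PreS differences ran between -0.21 and 0.29. The brightest of them ranged over 404 to 1143 in TCR insHEL cells and 361 to 1532 in TCR cells and differed by -0.12 (95% interval -0.93 to 0.70). Its probesets 1435449_at and 1426334_a_at, called in single positive cells at 1.39 and 0.93, differed by -0.17 and 0.17 in PreS cells.

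Rgs16, an inhibitor of G protein signalling, was the list member with an unadjusted p under 0.05 in PreS cells. Its probeset 1455265_a_at had signals of 8.8, 24.3 and 26.6 in B10 TCR insHEL and 16, 20.2 and 7.2 in NOD TCR insHEL cells, against 4.9, 8.1 and 13.4 in B10 TCR and 7.4, 4.6 and 4.0 in NOD TCR cells. Values were higher on average in TCR insHEL cells of both strains but overlapped with TCR cells in each, and all were under the 32 used as a lower limit. The difference was 1.29 (95% interval 0.51 to 2.08, unadjusted p = 0.0033, adjusted p = 0.994). The other Rgs16 probeset, 1426037_a_at, read 0.6 to 2.7 in TCR insHEL and 0.7 to 1.9 in TCR PreS cells, signals too low to give a difference. In single positive cells it read 102.8, 163.7 and 148.8 in B10 TCR insHEL and 22.5, 24.9 and 22.5 in NOD TCR insHEL cells, against 0.5 to 4.1 in TCR cells.

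**Figure D3:**
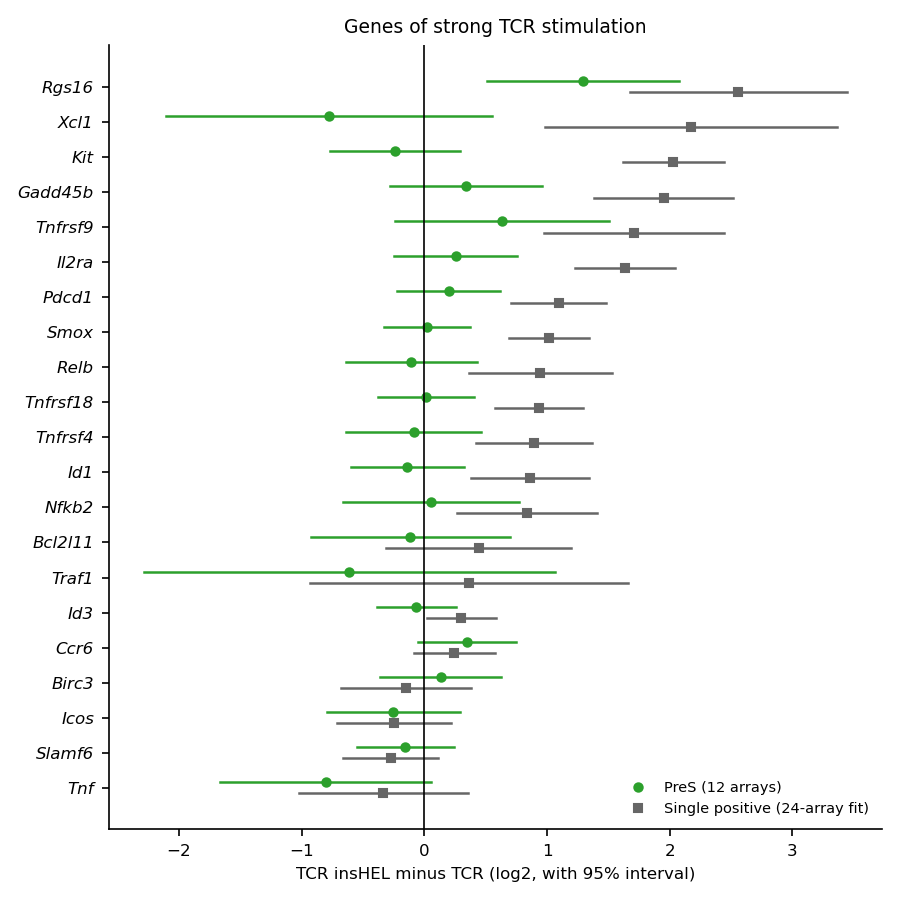
Difference of TCR insHEL minus TCR cells (log2, horizontal axis) for 21 genes of strong receptor stimulation, ordered by their single positive value. Green circles are PreS cells (12 arrays, strain as block) and grey squares single positive cells (24 arrays), and lines are 95% intervals. Of the PreS intervals only that of Rgs16 leaves out 0, while 8 of the single positive differences were called.

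The difference between stages was tested directly, as the genotype difference in PreS cells minus that in single positive cells over all 24 arrays. The test called 3 probesets, all with a lower PreS than single positive difference (0.0234% of those tested), and 767 (5.97%) had an unadjusted p under 0.05. Kit, the receptor for stem cell factor, read 25.1, 28.8 and 35.3 in B10 TCR insHEL and 19.9, 13.6 and 30.1 in NOD TCR insHEL cells, against 34.9, 42.2 and 18.6 in B10 TCR and 21.6, 39.8 and 27.7 in NOD TCR cells, with overlap in both strains, and the PreS difference was -0.24 against 2.03 in single positive cells. Its stage difference was -2.27 (adjusted p = 0.000467). Pdzk1ip1, a small membrane protein, differed by -0.11 in PreS and by 2.23 in single positive cells (stage difference -2.34). For Rgs16 1426037_a_at the stage difference was -5.28, a size that depends on signals under 5. With signals under 16 raised to 16 it was -1.78 and was still called, while Kit was at -2.22 and Pdzk1ip1 at -2.39. The PreS signals of these 3 probesets were under 50 on every array, so a difference at that stage could be measured only over a narrow range. All 3 passed the filter on low signals only through single positive groups, Rgs16 1426037_a_at through B10 TCR insHEL cells alone. Their direction is thus tied to that filter. With the filter on PreS groups, which removed them, the test called 0. Within B10 alone the stage difference was called for 13 probesets (0.101%), these 3 among them, and within NOD alone for 1 probeset (0.00779%) that was none of the 3.

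Probesets that separated the genotypes in single positive cells in the fit on 24 arrays were then looked up in PreS cells. PreS arrays thus entered the choice through the filter on low signals and the estimate of the spread. The 12 single positive arrays alone, with strain as a block, gave 10 calls. In the fit on 24 arrays there were 45 higher and 6 lower probesets in TCR insHEL single positive cells (0.351% and 0.0467%, together 0.397% of those tested), with medians of 1.18 and -0.87 that describe the choice. In PreS cells the 45 had a median difference of 0.09, and 28 of them (62.2%, against 47.7% of all probesets) differed upwards. None was called, 2 were higher and 1 lower at an unadjusted p under 0.05, and for all 45 the upper bound of the PreS interval lay below the single positive value. Those single positive values were picked as large and their own error was left out, so that is no test of a stage difference. For 13 of the 45, both genotypes averaged under 32 in PreS cells. The 2 with an unadjusted p under 0.05 upwards were Rgs16 1455265_a_at and Hip1r (0.42, interval 0.04 to 0.81), a clathrin-associated protein, and the 1 downwards was Mki67, the proliferation antigen Ki-67, which is described with the cell cycle genes. The 6 lower ones had a PreS median of -0.30, and 5 of them differed downwards. Among these Tdrp had an unadjusted p under 0.05 in PreS cells, and Cd4 differed by -0.37 (95% interval -0.76 to 0.02, unadjusted p = 0.0591) in PreS and by -1.07 in single positive cells (adjusted p = 0.0252), where it was -1.71 in B10 and -0.43 in NOD.

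The 10 probesets of lowest p on each side of the blocked comparison, among those with a mean signal of at least 100, are given as values, since all had an adjusted p of 0.994. On the higher side, H2-K1, the heavy chain of an MHC class I molecule, had signals of 239, 229 and 307 in B10 TCR insHEL and 292, 222 and 249 in NOD TCR insHEL cells, against 149, 254 and 109 in B10 TCR and 115, 80.1 and 154 in NOD TCR cells. Within NOD every TCR insHEL value was above every TCR value, and within B10 the TCR array at 254 lay among the TCR insHEL values. The difference was 0.92 (95% interval 0.41 to 1.43, unadjusted p = 0.00168), the lowest p of that side. The 3 other H2-K1 probesets differed by 0.40, -0.06 and -0.10, and all 4 are of a kind whose oligonucleotides may also bind related class I transcripts. Tspan31, a tetraspanin, averaged 174 ± 50.5 in TCR insHEL cells and 109 ± 54.8 in TCR cells (SD, n = 6 each), a difference of 0.77 (95% interval 0.29 to 1.26), with 0.52 at its second probeset. Inpp5j, a phosphatase of inositol lipids, ranged over 207 to 320.1 in TCR insHEL cells and 143 to 186 in TCR cells, without overlap, a difference of 0.56 (95% interval 0.19 to 0.92). Tmem11, of the mitochondrial inner membrane, and the mitochondrial peroxiredoxin Prdx3 differed by 0.81 and 0.78, and Atg5, a component of the autophagy conjugation system, by 0.71, with -0.26 and 0.23 at its other probesets. The remaining ones were Nup54, a nuclear pore protein (0.87), the semaphorin Sema6c (0.62), the trefoil peptide gene Tff1 (0.51) and Ten1, a subunit of a complex that binds telomeres (0.49). Nup54 also had another tested probeset, whose value is not given here.

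On the lower side, Prpf4b, a kinase of pre-mRNA splicing, had signals of 149, 144 and 122 in B10 TCR insHEL and 93.8, 155 and 91.3 in NOD TCR insHEL cells, against 217, 210.3 and 122 in B10 TCR and 445, 304 and 242 in NOD TCR cells. The TCR insHEL values were lower than the TCR values in NOD, and in B10 the lower TCR insHEL values lay at the level of the lowest TCR array. The difference was -0.91 (95% interval -1.46 to -0.36, unadjusted p = 0.00312). Rnpc3, a protein of the minor spliceosome, differed by -0.78, the RNA-binding protein gene Khdrbs1 (Sam68) by -0.70 and Lsm14b by -0.67. The 4 other Khdrbs1 probesets differed by 0.03, -0.39, -0.42 and -0.34. Rab5c, a GTPase of early endosomes, ranged over 102 to 167 in TCR insHEL cells and 147 to 269 in TCR cells, a difference of -0.65 (95% interval -1.07 to -0.24). Ddr1, a collagen receptor, ranged over 19.3 to 75 in TCR insHEL cells and 55.7 to 213 in TCR cells (difference with a 95% interval -1.66 to -0.34), and its 4 other probesets differed by -0.37, 0.07, -0.82 and 0.35. The remaining genes were the zinc finger factor Rreb1 (-0.74), Cd1d2, a CD1d family gene of lipid presentation (-0.73), and Nabp1, a single-stranded DNA binding protein (-0.68). Prpf4b, Rnpc3, Rreb1 and Nabp1 also had other tested probesets, whose values are not given here.

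All 20 genes differed in the same direction in both strains. The choice by lowest p with strain as a block favours such genes, so this is no check between strains. Tdrp, the tenth gene of the lower side, was the only one of the 20 that lay further from 0 in B10 than in NOD. Its signals were 43.9, 58.4 and 23.3 in B10 TCR insHEL and 179, 169 and 209.8 in NOD TCR insHEL cells, against 147, 163 and 111 in B10 TCR and 272, 253 and 211 in NOD TCR cells. In B10 the groups were well separated, with a difference of -1.78 (95% interval -2.46 to -1.10, unadjusted p = 8.99e-05, adjusted p = 0.577), and in NOD they were -0.32 apart (95% interval -0.82 to 0.18). The difference between strains was 1.46 (unadjusted p = 0.00685, adjusted p = 0.623). In single positive cells it averaged 89.1 ± 13.9 in B10 TCR insHEL and 270.1 ± 36.8 in B10 TCR cells (SD, n = 3 each), a difference of -1.66 (adjusted p = 0.00256), and in NOD the single positive difference was -0.20. On the 1 hybridization day that held both B10 genotypes, with 1 array of each, the PreS difference was -2.32, and on the NOD day, with 1 TCR insHEL and 2 TCR arrays, it was -0.24, so neither value has a replicate check. The difference in B10 was thus of like size at both stages, and it was called at the single positive stage only. The PreS value came from the fit on B10 arrays alone (standard error 0.31). The single positive value came from the fit on arrays of both strains (standard error 0.27), so the calls cannot be compared between stages. Tested directly over both strains, the stage difference was -0.12 (95% interval -0.68 to 0.44).

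Genes that define double positive cells showed no called difference. Cd8a, the CD8 alpha chain, ranged over 1809 to 3386 in TCR insHEL cells and 2049.7 to 3283 in TCR cells (0.02, 95% interval -0.36 to 0.41). Cd8b1, its partner chain, differed by -0.33 (95% interval -0.84 to 0.19), and its lowest value, 136.5, was on NOD TCR insHEL 1. Cd4 had signals of 206, 240.3 and 264 in B10 TCR insHEL and 418, 433 and 362 in NOD TCR insHEL cells, against 368, 312 and 271 in B10 TCR and 676, 592 and 373 in NOD TCR cells, and the 3 B10 TCR insHEL values lay below the 3 B10 TCR values while the NOD ones overlapped. Rag1 differed by -0.29 (95% interval -0.71 to 0.12), Ptcra, the pre-T cell receptor alpha chain, by 0.20 (95% interval -0.25 to 0.64), and Ccr7, which guides cells to the medulla, by -0.48 (95% interval -1.23 to 0.26) at signals of 6.6 to 39.2 in TCR insHEL cells and 15.4 to 51.7 in TCR cells. With hybridization day as a fixed block, a fit in which the genotypes are compared through 1 B10 and 1 NOD TCR insHEL array, Cd4 was at -0.08, Cd8b1 at -1.10, Rag1 at 0.04, Ccr7 at -1.40 and Pdcd1 at -0.18, none of them called. Of 17 tested genes of double positive identity 0 were called, 0 had an unadjusted p under 0.05 and 5 differed upwards, with a median of -0.16 (all probesets, -0.01). The widest difference downwards was that of Bcl6, a repressor (-0.53, 95% interval -1.14 to 0.07). Of 18 tested genes of single positive maturation the median was -0.07, and of 19 tested genes of the receptor complex and its proximal signalling -0.04, with 0 called and 0 at an unadjusted p under 0.05 in either list. Ins2, an insulin gene, read 10.7 to 17.0 in TCR insHEL and 9.3 to 30.8 in TCR cells, and Aire 4.2 to 30.4 in TCR insHEL and 2.1 to 14.2 in TCR cells, all under 32. Of 19 genes of Aire-dependent and tissue antigens, 15 had a named probeset and 1, Gad2, was tested. Cd69, the marker of the gate, was not analysed here.

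Cell cycle genes were not called in PreS cells, and in single positive cells their medians stood higher in B10 than in NOD, a difference that was not tested. Of 32 tested genes of G2/M and mitosis, 0 were called, 1 had an unadjusted p under 0.05, and the median was -0.04, against 0.68 in single positive cells (2 called, 27 at an unadjusted p under 0.05, which 9.94% of all probesets reached). The single positive G2/M median was 1.54 in B10, with 31 of 32 upwards, and -0.10 in NOD, with 7 of 32 upwards. Of 28 tested genes of G1/S and DNA replication the median was 0.03 in PreS and 0.33 in single positive cells (0.85 in B10, 0.02 in NOD). Mki67 had signals of 922, 1901 and 1252 in B10 TCR insHEL and 576, 615 and 740 in NOD TCR insHEL cells, against 1520.2, 1138 and 1137 in B10 TCR and 2361, 961 and 1686 in NOD TCR cells. The B10 groups overlapped and the NOD TCR insHEL values lay below all NOD TCR values. The blocked difference was -0.60 (95% interval -1.20 to 0.00), with -0.03 in B10 and -1.18 in NOD, while in single positive cells it was 1.19 (adjusted p = 0.0252), with 3.01 in B10 and -0.62 in NOD. Of 22 tested apoptosis regulators the median was -0.10 and 1 had an unadjusted p under 0.05, the cell cycle inhibitor gene Cdkn1a, p21, at 0.61 (95% interval 0.07 to 1.15).

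Within B10, 0 of 12838 probesets were called in either direction (0%), with a smallest adjusted p of 0.562. At an unadjusted p under 0.05 there were 136 higher (1.06%) and 151 lower (1.18%), 287 in all (2.24%). The unadjusted count was 464 without B10 TCR 2, 553 without B10 TCR insHEL 2 and 197 to 380 without each of the other 4 B10 arrays. It was 830 with arrays weighted, 657 with hybridization day as a fixed block and 175 with the 12 PreS arrays in 1 fit. Next to Tdrp, the leading genes on the lower side were Ypel5 (-0.86, and -0.22 at its other probeset), Rpl39, a ribosomal protein gene (-1.02), and Cd84, a receptor of the SLAM family (-0.89), each with an adjusted p of 1. Cd84 had signals of 127, 223 and 126 in B10 TCR insHEL cells, against 287, 261 and 302 in B10 TCR cells, without overlap, and 96.3, 101 and 138 in NOD TCR insHEL cells, against 88.9, 158 and 113 in NOD TCR cells, with overlap. On the higher side were Nudc, a nuclear distribution gene (1.01, and 0.12 at its other probeset), Tmppe, a putative phosphoesterase (1.02), Agtrap, a protein of the angiotensin receptor (0.80, and -0.26 at its other probeset), and Cd74, the invariant chain of MHC class II (1.18). Cd74 had signals of 1020.1, 609 and 405 in B10 TCR insHEL cells, against 249, 372 and 195 in B10 TCR cells, and 129, 501 and 388 in NOD TCR insHEL cells, against 445, 767 and 551 in NOD TCR cells. The TCR insHEL values were above the TCR values in B10, and in NOD they reached from below to within the TCR values, so that the strain difference was -2.07 (unadjusted p = 0.00754, adjusted p = 0.623).

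Cd74 is also a marker of B cells, and the lists of markers of other cell types were therefore read beside it. Of 14 B cell markers 9 were tested. In B10 all 9 differed upwards with a median of 0.65 (all probesets, 0.01), 3 of them at an unadjusted p under 0.05 (2.24% of all probesets): Cd74, the B cell receptor component Cd79a (1.01) and Ms4a1, CD20 (1.22). Cd74 is counted in both though its own low p in B10 led to this list, so its place in them was fixed beforehand. In NOD the median was 0.10 with 5 of 9 upwards. The summed signal of the list ran from 4561 to 8094 in B10 TCR insHEL and from 4761 to 4915 in B10 TCR arrays, and from 5646 to 9196 in NOD TCR insHEL and 5006 to 7121 in NOD TCR arrays. Cd79a itself read 51.3, 94.9 and 88.2 in B10 TCR insHEL cells, against 32.6, 59.5 and 26.7 in B10 TCR cells. Without B10 TCR insHEL 1, which held the highest Cd74 signal, the B10 median was 0.34. In sorted cells more B cells and more RNA per B cell cannot be told apart, and the part of such cells in the B10 values was not tested. Of 22 myeloid and dendritic cell markers 15 were tested, with medians of 0.42 in B10 and 0.13 in NOD. In B10 all 15 differed upwards, 3 of them at an unadjusted p under 0.05 (the complement gene C1qc, 1.11, Cd83, 1.07, and Cd14, 1.10). Of 9 granulocyte markers 6 were tested, with medians of 0.33 in B10 and 0.99 in NOD and summed signals of 276 to 3404 in TCR insHEL and 118 to 1115 in TCR arrays. The granulocyte genes S100a8 and S100a9 read 1035.5 and 933.7 on B10 TCR insHEL 2, 34.2 to 387.5 and 33.4 to 266.5 on the other TCR insHEL arrays, and 14.6 to 273 and 7.3 to 241.7 on TCR arrays. Erythroid markers (2 of 10 tested) summed to 54 to 85 in TCR insHEL and 54 to 95 in TCR arrays, and thymic epithelial and stromal markers (6 of 20 tested) to 156 to 306 in TCR insHEL and 203 to 246 in TCR arrays. Of 18 genes of gamma delta, natural killer and innate-like T cells 8 were tested, with a blocked median of 0.29 (0.02 in B10, 0.43 in NOD) and summed signals of 3040 to 5985 in TCR insHEL and 2652 to 4320 in TCR arrays. No member of any of the 6 marker lists was called in the blocked comparison or in either strain.

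Within NOD, 4 probesets were called, all lower in TCR insHEL cells (0.0312% of those tested), and 529 higher (4.12%) and 804 lower ones (6.26%), 1333 in all (10.4%), had an unadjusted p under 0.05. The called ones were dim, below the mean signal of 100 required of the genes named by p, and are described because they passed, chosen after their values were seen. Golga4, a golgin that tethers transport vesicles, read 7.3, 6.3 and 4.9 in NOD TCR insHEL cells, against 148, 40.7 and 53.5 in NOD TCR cells at probeset 1460213_at (-3.39, 95% interval -4.36 to -2.41, adjusted p = 0.0272). Ppp3ca, the catalytic subunit of calcineurin, read 3.3, 8.4 and 2.3 in NOD TCR insHEL cells, against 43.9, 22.5 and 39.2 in NOD TCR cells at 1426401_at (-3.00, adjusted p = 0.0272). The TCR insHEL values were under 13 and did not overlap with the TCR values at either probeset, nor at 1700094D03Rik (-2.38) and the unnamed 1426061_x_at (-3.51). The other probesets of the same genes differed less, Golga4 by -1.02 and -1.51 and Ppp3ca by -0.21 and -1.07, and none of those was called. In B10 the 4 called probesets differed by 0.35, 1.57, -0.28 and -1.30, in the order named. With signals under 16 raised to 16, or without NOD TCR insHEL 1, NOD TCR 1 or NOD TCR 3, 0 probesets were called within NOD, and without NOD TCR 2 there were 13. Fitted on PreS arrays alone none of the 4 was called, with 1 other probeset called in the 12 PreS arrays of both strains and 2 others in the 6 of NOD. With arrays weighted by their spread there were 259 calls, and with hybridization day as a fixed block 868, where NOD TCR insHEL 1 alone was set against NOD TCR 1 and 3 of its day, so that those calls rest on the array that stood apart. The unadjusted count was 528 without NOD TCR 1 and 851 without NOD TCR insHEL 1, and it was 1666 without NOD TCR 2 and 1710 without NOD TCR insHEL 3. It was 2157 with the 3' to 5' ratio as a covariate, 2379 with day as a random block, 2866 with array weights and 3673 with day as a fixed block. With signals under 16 raised to 16 the 4 differences were -2.02 (Golga4), -1.01 (Ppp3ca), -1.39 (1700094D03Rik) and -2.01 (1426061_x_at).

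Among the brighter genes of the NOD comparison none was called in the fit reported here. With arrays weighted by their spread, Ifi27l2a, Tmem11, Cd53, AI504432, Luc7l2, Rbm39 and Usp9x were called at the probesets named. Rbm39 was also called with the 3' to 5' ratio as a covariate, and AI504432 without NOD TCR 2. Calls with hybridization day as a fixed block, which rest on NOD TCR insHEL 1 alone, are not listed here. In that fit Ifi27l2a was at 2.26 and AI504432 at -2.84. Ifi27l2a, an interferon-induced gene, read 481, 386 and 974.8 in NOD TCR insHEL cells, against 93.9, 162 and 128 in NOD TCR cells, and 182, 212 and 168 in B10 TCR insHEL cells, against 207, 216 and 435 in B10 TCR cells. The NOD groups were well apart and the B10 ones overlapped, with differences of 2.21 (95% interval 1.40 to 3.02, adjusted p = 0.117) and -0.53 (95% interval -1.16 to 0.11), which differed between strains by 2.73 (unadjusted p = 0.000209, adjusted p = 0.446). Cd53, a leukocyte tetraspanin, differed by 1.16 in NOD and -0.92 in B10 (strain difference 2.07, unadjusted p = 0.00637, adjusted p = 0.623), and Tmem11 and Tspan31 by 1.26 and 1.07 in NOD. On the lower side, Rbm39, a splicing coactivator, read 70.1, 85.5 and 62.2 in NOD TCR insHEL cells, against 413, 355 and 229.6 in NOD TCR cells at 1446148_x_at (-2.06, adjusted p = 0.154). All 6 tested Rbm39 probesets differed downwards in NOD (-0.97 to -2.26) and ran from -0.21 to 0.54 in B10. At 1446148_x_at the B10 signals were 13.6, 35.4 and 34.8 in TCR insHEL cells, against 26.2, 30.1 and 10.2 in TCR cells. At signals this low a fall in B10 could be measured only over a narrow range. The paper lists 4 of the 6 probesets (1442744_at, 1442745_x_at, 1446147_at and 1446148_x_at) under 1 other gene name. It gives them as higher in NOD than in B10 cells in each condition. The 6 are thus not separate readings of Rbm39, and which transcript these 4 read was not tested. Luc7l2, another splicing factor (-1.68, and -1.56 to 0.00 at its 4 other probesets), the deubiquitinase gene Usp9x (-1.46) and AI504432 (-2.21, 71.6, 141 and 81.1 in NOD TCR insHEL cells, against 717, 283 and 498 in NOD TCR cells) had adjusted p of 0.139, 0.154 and 0.117. Usp9x also had other tested probesets, whose values are not given here.

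**Figure D4:**
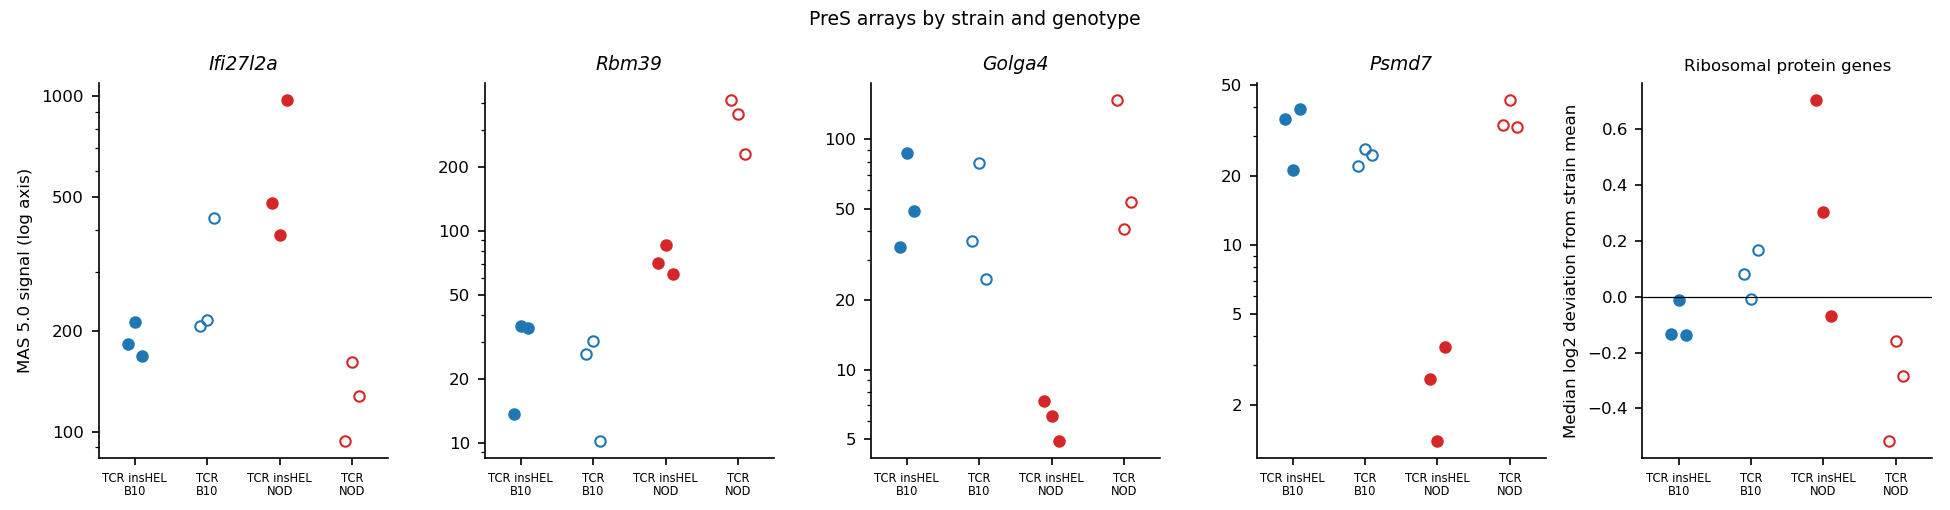
Signals (log axis) of Ifi27l2a, Rbm39 (1446148_x_at), Golga4 (1460213_at) and Psmd7 (1432820_at) and, at the right, the median log2 deviation of 18 cytosolic ribosomal protein genes from the mean of the strain, on the 12 PreS arrays. Points are single arrays (filled, TCR insHEL; open, TCR), blue for B10 and red for NOD. The NOD groups are apart in each panel, with TCR insHEL higher for Ifi27l2a and the ribosomal genes and lower for the other 3 genes.

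The difference between the strains in the genotype effect was tested directly on the 12 PreS arrays. The test called 1 probeset (0.00779% of those tested), and 969 (7.55%) had an unadjusted p under 0.05. That count was 435 without NOD TCR 1, 535 without B10 TCR 3, 634 without NOD TCR insHEL 1, 1501 without NOD TCR 2 and 1684 without NOD TCR insHEL 3. The called probeset was Psmd7 1432820_at, of a subunit of the proteasome lid, which read 2.6, 1.4 and 3.6 in NOD TCR insHEL cells, against 33.5, 42.9 and 32.8 in NOD TCR cells, and 35.5, 21.3 and 39.2 in B10 TCR insHEL cells, against 22.2, 26.2 and 24.6 in B10 TCR cells (-4.24, adjusted p = 0.0212). The NOD TCR insHEL arrays were under 4 and apart from all the others, and the B10 groups overlapped. The second Psmd7 probeset had a strain difference of -0.17, and the called one was under 43 on every array. It was called without B10 TCR insHEL 2, NOD TCR insHEL 2 or NOD TCR insHEL 3, but not without any 1 of the other 9 arrays, nor with signals under 16 raised to 16, where the difference was -1.45.

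Groups of genes with high signals differed between strains by their medians. Of 28 cytosolic ribosomal protein genes 18 were tested. Their median difference was 0.64 in NOD, where 17 of 18 differed upwards (7 higher and 1 lower at an unadjusted p under 0.05, 4.12% and 6.26% of all probesets), and -0.19 in B10, where 1 of 18 did. Over all probesets the medians were -0.03 and 0.01. Rpl27 differed by 0.97 (95% interval 0.31 to 1.62) in NOD and by -0.08 in B10, and Rps15 by 0.79 in NOD and -0.08 in B10. Rpl12 was the exception in NOD at -0.86. The strain difference had a median of 0.87 over the 18 genes, 11 of which stood further up in NOD at an unadjusted p under 0.05 (3.7% of all probesets did) and 0 of which were called. By array the median deviation of these genes was 0.70, 0.30 and -0.07 in NOD TCR insHEL cells, against -0.52, -0.16 and -0.28 in NOD TCR cells, so the groups did not overlap, with the highest value on NOD TCR insHEL 1. The NOD median was 0.02 after quantile normalization, 0.43 without NOD TCR insHEL 1, 0.52 with the 3' to 5' ratio as a covariate and 1.11 within the shared hybridization day (1 TCR insHEL and 2 TCR arrays). On the shared B10 day (1 array of each genotype) it was -0.35. Of 25 tested respiratory chain genes the median was 0.59 in NOD, with 21 upwards, and -0.12 in B10, with 9 upwards, and after quantile normalization the NOD value was 0.22. Cox5b, a subunit of cytochrome c oxidase, differed by 0.86 (95% interval 0.08 to 1.64) in NOD. No member of either list was called in any of the comparisons of PreS cells.

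Interferon-induced genes had the highest blocked median of the lists that are no cell type markers, at 0.27 over 30 tested genes, 23 of them upwards (47.7% of all probesets were). The median was 0.02 in B10 and 0.49 in NOD, with 0 called and, in NOD, 4 higher and 1 lower at an unadjusted p under 0.05. Bst2, which tethers budding virus at the cell surface, differed by 0.74 (95% interval 0.13 to 1.35), Zbp1, a sensor of nucleic acids, by 0.70 (95% interval -0.01 to 1.41), and Rtp4 by 0.49 (95% interval -0.32 to 1.30). By array the median deviation was 0.24, -0.18 and 0.88 in NOD TCR insHEL cells, against -0.39, -0.15 and -0.07 in NOD TCR cells, which overlap, and in B10 all 6 arrays lay between -0.06 and 0.11. Without NOD TCR insHEL 3, the highest array, the NOD median was 0.19. Of the remaining lists, the blocked medians were 0.13 for Notch and pre-TCR genes (15 tested), 0.08 for heat shock genes (15), 0.05 for cholesterol synthesis (14) and -0.14 for glycolysis (16), with 0 called in each.

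**Figure D5:**
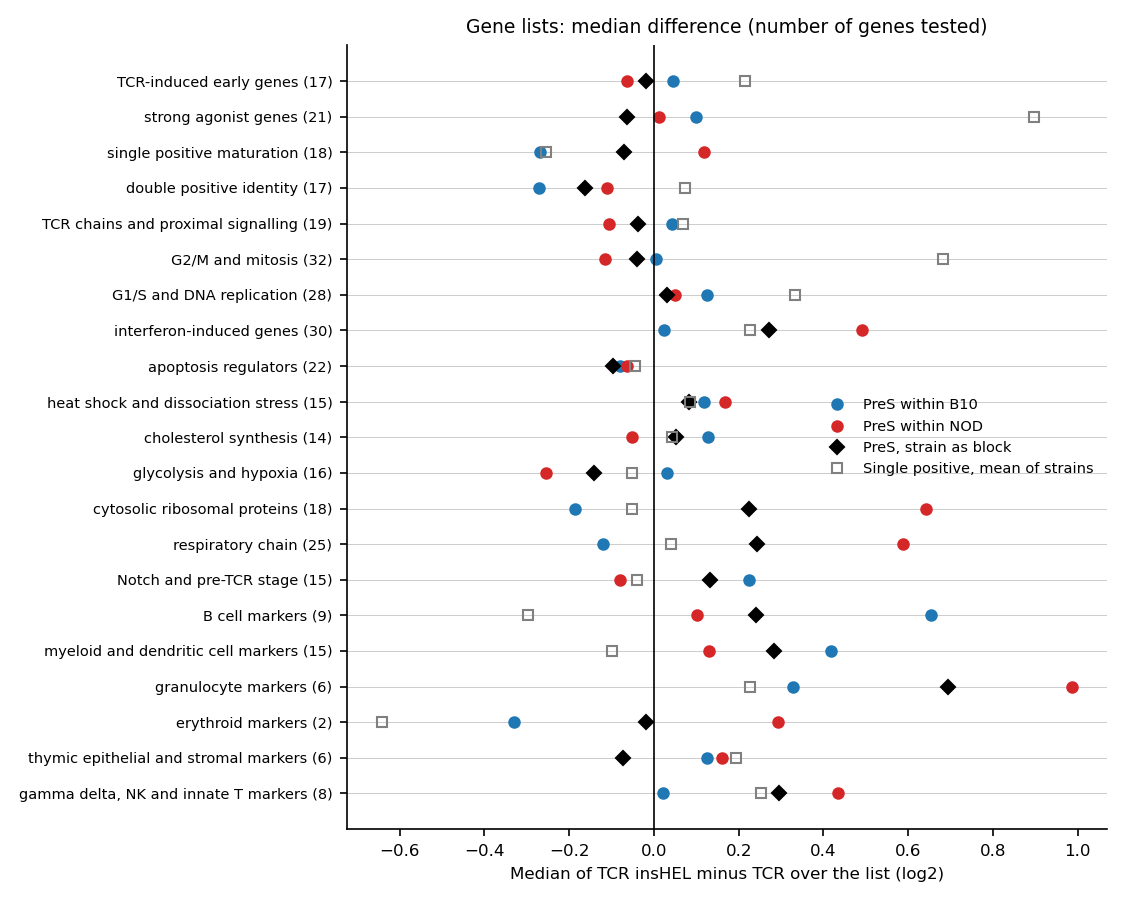
Median difference of TCR insHEL minus TCR cells (log2, horizontal axis) over the tested genes of 21 lists, whose numbers are in brackets. Blue and red circles are PreS cells within B10 and within NOD, black diamonds PreS cells with strain as a block and open grey squares single positive cells over both strains. Strong agonist genes and G2/M genes have medians of 0.90 and 0.68 in single positive cells and of -0.06 and -0.04 in PreS cells, with the G2/M value at 1.54 in B10 and -0.10 in NOD single positive cells, and ribosomal and respiratory chain genes have medians of 0.64 and 0.59 in NOD and of -0.19 and -0.12 in B10.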

How the data were processed

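The study measured messenger RNA of sorted mouse thymocytes on Affymetrix MOE430A GeneChips. The authors deposited MAS 5.0 signal values, named in the submitters' processing notes as MAS5 with no version, which are linear values scaled on each array. From that table of 22690 probesets the 64 controls were dropped, 0.1 was put in place of 33 zeros, log2 was taken, and each array was standardized to mean 0 and variance 1 and put back on a common scale. Replicate numbers name RNA pools, and p-values measure the spread between these pools. In fits with strain as a block, that spread also holds any difference between strains in the genotype effect. Symbols were taken from the platform's probe annotation, in which 20380 probesets had 1 symbol, 691 several and 1555 none, and 20351 were matched to RefSeq genes.

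Tests used limma 3.58.1 in R 4.3.3 (files were read with Python 3.11.15 and pandas 2.3.3, and figures drawn with matplotlib 3.10.9), with the adjustment of Benjamini and Hochberg over 12838 probesets and a threshold of 0.05. The blocked comparison used the 12 PreS arrays with strain as a term. Each strain was fitted on its 12 arrays of both stages in 4 groups, the strain difference on the 12 PreS arrays in 4 groups, and the stage difference and the single positive values on 24 arrays in 8 groups. All tests were two-sided, and intervals are at the 95% level. The fits were checked on simulated data. Named were the 10 probesets of lowest p on each side of the blocked comparison and 4 on each side within each strain, with a mean signal of at least 100 and 1 symbol, and a fixed list of selection genes. The members and the 22 gene lists, written from general knowledge, were chosen with earlier results of these data known. A list gene was represented by its brightest tested probeset. Alternatives were other scalings, a floor of 16, other filters on low signals, other forms of the test, array weights, the replicate number, the hybridization day or the 3' to 5' ratio as a term, other sets of arrays, and each PreS array left out in turn.

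Same-numbered arrays of the 2 genotypes did not deviate together in general, with correlations of -0.209 to 0.319, so replicate numbers were not treated as pairs.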

Additional observations from a re-analysis of the deposited data

Results flagged for a closer look

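Outlying arrays were sought in groups of 6 PreS arrays of 1 genotype, on standardized log2 values taken as deviations from the mean of the strain. By Dixon's criterion 4 of 64 groups tested held an array far from the others, which chance alone flags in about 1 of 20 groups. NOD TCR insHEL 1 was the lowest TCR insHEL array for 3 of them. Cd8b1 read 136.5 there, against 306.9 to 763.3 on the other 5 arrays, Nr4a1 read 37.5, against 85.3 to 206.9, and Egr1 read 457.9, against 1047.3 to 1524.2. That array also had the lowest upper quartile, 114.3, and the highest 3' to 5' ratio, 4.94, and the part of these in the 3 values was not tested. In TCR cells Tmem11 read 137.5 on B10 TCR 3, against 49.2 to 78.3 on the other 5 arrays.

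The genotype difference itself differed between strains or stages for 4 probesets. Psmd7 1432820_at had a difference of TCR insHEL minus TCR that was lower in NOD than in B10 PreS cells by 4.24 on the log2 scale (-4.24, adjusted p = 0.0212 by limma), a size that rests on NOD TCR insHEL signals under 4 and was -1.45 and not called with signals under 16 raised to 16. The difference was lower in PreS than in single positive cells for Pdzk1ip1 (-2.34), Rgs16 1426037_a_at (-5.28) and Kit (-2.27), each with an adjusted p of 0.000467 by limma. All 3 passed the filter on low signals only through single positive groups. With hybridization day as a fixed block, Rgs16 1426037_a_at and Kit were not called. The Rgs16 value rests on signals under 5 in 3 of the 4 groups and was -1.78 with signals under 16 raised to 16.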

How the results depend on the processing

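No probeset was called in the blocked comparison or within B10 under any setting run. Within NOD the count of 4 was 0 with a floor of 16, with no filter and in the methods' t-test, 2 with a filter at 64, 2 with a trend and robust prior, 259 with array weights, 868 with hybridization day as a fixed block (a comparison of 1 TCR insHEL with 2 TCR arrays), 1 with the 12 PreS arrays in 1 fit and 2 with the 6 PreS arrays of NOD (none of them among the 4), and ran from 0 to 13 as single arrays were left out. The strain difference, 1 call, had 0 with a floor of 16, no filter, a filter at 64, the methods' t-test, a trend and robust prior, day as a fixed block, the 3' to 5' ratio or all 24 arrays, 2 with array weights, and 0 to 3 as arrays were left out. The stage difference, 3 calls, had 11 with a floor of 16, 0 with a filter on the PreS groups (which removed these probesets), 152 with array weights, 13 within B10, 1 within NOD and 3 to 5 as arrays were left out. It had 4 calls with day as a fixed block, 1 of them among the 3, and 2 with a trend and robust prior, Rgs16 1426037_a_at not among them. With the replicate number as a block, a pairing that the data did not bear out, there were 0 calls within NOD, 0 for the strain difference and 3 for the stage difference. The causes of these changes were not tested. No result changed direction while called. Of the named genes, 14 values moved by more than the spread between arrays, 13 of them with day as a fixed block, among them Cd8b1 (-1.10), Ccr7 (-1.40) and Rag1 (0.04, against -0.29 as reported). Of the medians of gene lists, 41 of 959 under other settings and 18 of 528 with an array left out moved by more than the spread between arrays. The calls within NOD and of the strain difference rest on signals near the lower limit, where a few units are a large log2 difference. The 3 stage calls were also made with signals under 16 raised to 16.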
